A study of Rattus norvegicus with 6 samples.

Results

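The nuclear genes for the subunits of respiratory complexes II, III and IV, of ATP synthase (complex V) and of cytochrome c were compared in rat myocardium after ischemia and reperfusion. Members were chosen by gene symbol alone, as Sdha to Sdhd, Cycs, Cyc1, and all symbols beginning with Uqcr, Cox4 to Cox8 or Atp5. The rule matched 48 rows of the deposited table, and summing rows of one symbol left 45 genes of 28293 in all. These were 4 genes of complex II, 8 of complex III, 17 of complex IV, 15 of complex V and Cycs. They include pseudogenes and Atp5if1, which encodes an inhibitor of ATP synthase and no structural subunit. Stranded total RNA libraries came from heart muscle of 3 sham and 3 I/R rats, all male and labelled wild type (WT). For I/R, the left anterior descending (LAD) artery was tied off for 30 min, and hearts were taken after 6 h of reperfusion. The sham samples carry the same times in their labels. The strain, the age and the piece of heart that was sampled are not given in the sources used here. Expression was given as FPKM, which counts the fragments of a gene per kilobase of its length and scales them to the size of the library. Listed levels of different genes are set side by side per length here, although how reads shared between similar sequences were counted is not given. The labels number the replicates without saying that each is a separate animal. Each is called a rat here, and the p-values measure the spread between these samples. Values of single rats are listed in the order of replicates 1, 2 and 3 of each group.

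The respiratory chain of the inner mitochondrial membrane passes electrons from NADH and succinate to oxygen and pumps protons, and ATP synthase uses the proton gradient to make ATP. Complex II oxidizes succinate, complex III passes electrons from ubiquinol to cytochrome c, and complex IV (cytochrome c oxidase) passes them on to oxygen. Complex II is encoded by nuclear genes alone. Mitochondrial DNA encodes cytochrome b of complex III, the catalytic subunits of complex IV and part of the proton channel of complex V. The heart depends on this system for nearly all of its ATP, and several subunits have isoforms that heart and skeletal muscle use in place of those of other tissues.

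Sham replicate 1 stood apart from the other sham rats in these genes. Its level was above that of both other sham rats in 37 of the 41 members tested (90.2%), against 27.8% of all genes. The median was 2.31 times the mean of the other two (0.913 times over all genes). The same rat was above both others in 6 of 7 cardiomyocyte markers, by a median of 2.71 times. It was also above both others in 3 of 4 atrial markers and in 3 of 7 pericyte and smooth muscle markers, with 104 FPKM of the smooth muscle actin gene Acta2 against 31.1 and 22.03 FPKM. It was so in 0 of 6 fibroblast and 0 of 5 endothelial markers. The summed FPKM of the cardiomyocyte markers was 11364, 3916 and 3465 in the sham rats and 33681, 24246 and 23353 in the I/R rats. In I/R, 6 of the 7 were called higher, with a median log2 fold change of 2.28. Cardiomyocyte markers moved with the members both between the groups and within the sham group. In bulk tissue, fewer cardiomyocytes and less RNA per cardiomyocyte cannot be told apart. The 13 mitochondrially encoded mRNAs took 80.1% to 86.2% of the summed FPKM in the sham rats and 61.8% to 71.5% in the I/R rats. A smaller share of these mRNAs leaves a larger share of the library for other genes. Among other markers, 2 of 6 fibroblast markers were called higher (median 0.58) and 0 of 5 endothelial markers were called (median 0.24). Of the pericyte and smooth muscle markers, 2 of 7 were higher and 2 lower (median 0.59), and 3 of 6 tested neutrophil and monocyte markers were higher (median 1.31). Of 4 atrial markers 1 was called higher (median 1.14), and the atrial light chain gene Myl7 stood at 133 FPKM in I/R replicate 3 and at most 3.57 FPKM in the other rats. Nppa, the atrial natriuretic peptide gene, was at 65.3, 8.82 and 5.71 FPKM in the sham rats and 78.4, 9.81 and 6.69 FPKM in the I/R rats, highest in replicate 1 of each group. Skeletal muscle markers summed to at most 2.21 FPKM in any rat, with 0 of 1 tested marker called, and of the adipocyte markers the 1 tested, Cidea, was not called. The part of these cell types in the results below was not tested.

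Of the 45 genes, 41 passed the filter of a mean of at least 0.5 FPKM over the 6 rats and were tested with limma on log2(FPKM + 0.1). This scale shrinks the fold change of weakly expressed genes. Of the 41, 35 were higher in I/R and 0 were lower at an adjusted p under 0.05 in the deposited scaling, a direction that turned in 1 other scaling described further on. Of all 10942 genes tested, 25.5% were called higher and 7.36% lower. The median log2 fold change of the 41 genes was 1.79 (3.45-fold), beside 0.29 over all genes tested, and 36 genes lay above 1. Abundant genes rose more often, and 40 of the members had a mean of at least 5 FPKM. Fitted over the 3784 genes at that level, 1892 genes were called higher, and the median was 0.66. In that fit 35 of the 40 members were called higher, and their median was above that of all genes by 1.13. Every I/R rat was above every sham rat in 36 of the 41, which held for 37.2% of all genes. By complex, the median was 1.97 in II (4 of 4 called), 1.85 in III (8 of 8), 1.497 in IV (9 of 13) and 1.45 in V (13 of 15), a description without a test. The order of II and III turned without sham replicate 1 or I/R replicate 1, and that of IV and V without sham replicate 2, with the highest row of each symbol or with a mean of at least 5 FPKM. Without sham replicate 1, 37 of the 41 were called higher (23.4% of all genes) and the median was 2.10. Without sham replicate 2 the count fell to 20 (17.5% of all genes), and without sham replicate 3 it was 24 (14.0%). In all, 19 of the 35 genes were called whichever rat was left out, among them all 4 genes of complex II, the 4 core genes of complex III, Cycs and Cox5a. Each of the other 16 but Atp5mc1 lost its call without sham replicate 2.

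**Figure D1:**
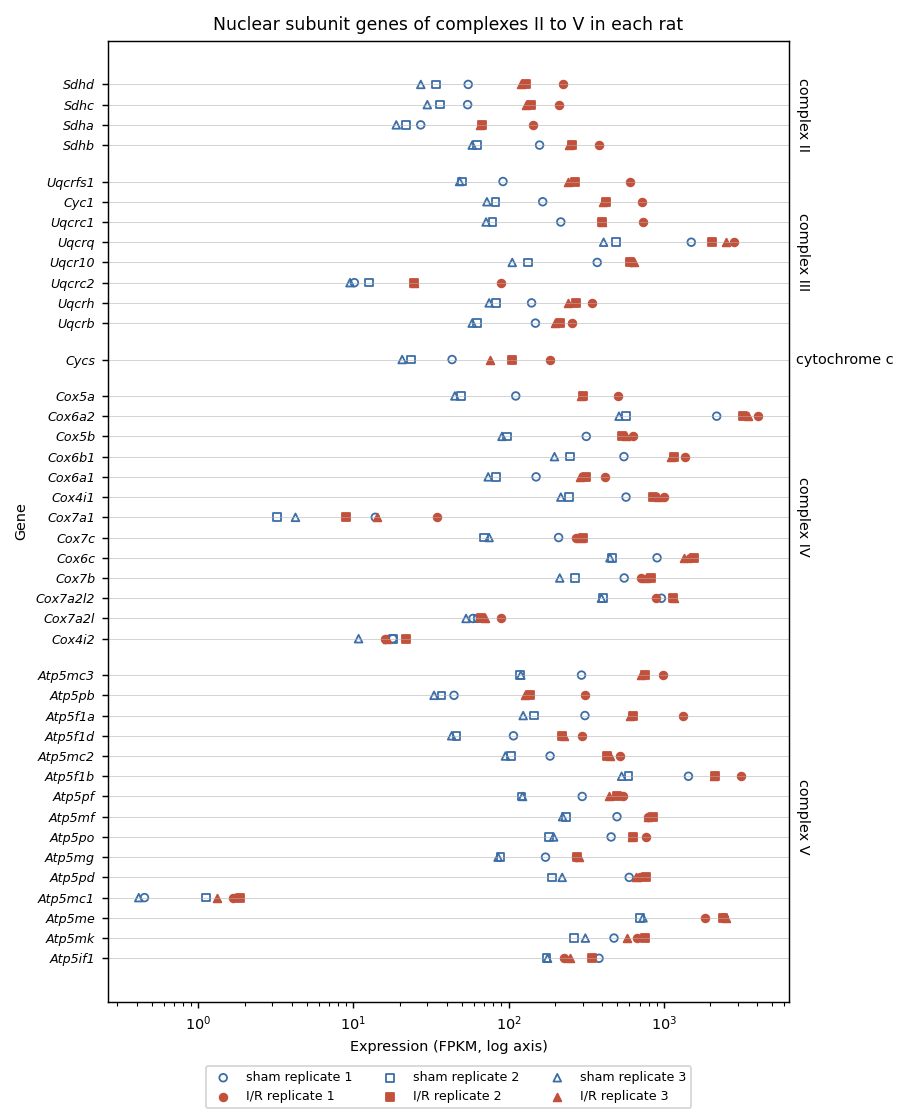
Expression of the 41 tested genes in each rat, in FPKM on a log axis, grouped by complex and ordered by log2 fold change, with open blue symbols for sham and filled red symbols for I/R (circle, square and triangle for replicates 1, 2 and 3). The open circle of sham replicate 1 lies between the other sham rats and the I/R rats for most genes, and in these deposited values the groups do not overlap in 36 of the 41 genes.

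These values depend on how the libraries are scaled. With the 13 mitochondrial mRNAs left out of each library's total, 24 members were called higher (7.25% of all genes) and 0 lower, the median of the members was 1.004 and that of all genes -0.46. The 24 were all 4 genes of complex II, 7 of 8 of complex III, 5 of 13 of complex IV, 7 of 15 of complex V and Cycs. After quantile normalization, 17 were higher (13.2% of all genes) and 1, Cox7a2l, was lower (14.2% of all genes), with a median of 0.76. When each library was centred on the cardiomyocyte markers, the direction turned: 0 were higher (0.320% of all genes), 12 were lower (82.0% of all genes) and the median was -0.51, beside -2.01 over all genes. Relative to the median of all genes, the median of the members was higher by 1.497 in the deposited scaling, by 1.46 without the mitochondrial mRNAs, by 0.78 after quantile normalization and by 1.497 on the cardiomyocyte centring. The cardiomyocyte centring subtracts a constant from all genes of a library, so it could not move this difference. Leaving out the mitochondrial mRNAs multiplies each library by a factor, which could move it only through the constant added before the log. Quantile normalization alone could move it otherwise, and the difference fell to 0.78. There 36 of the 41 genes lay above the median of all genes, against 39 in the deposited scaling. On the cardiomyocyte centring, the 12 genes called lower included Cox4i2, Cox6c, Cox7a2l, Cox7a2l2 and Cox7b of complex IV. The others were Atp5if1, Atp5me, Atp5mf, Atp5mg, Atp5mk, Atp5pd and Atp5po of complex V. The values in the following paragraphs are in the deposited scaling, and the median of all genes in it was 0.29.

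**Figure D2:**
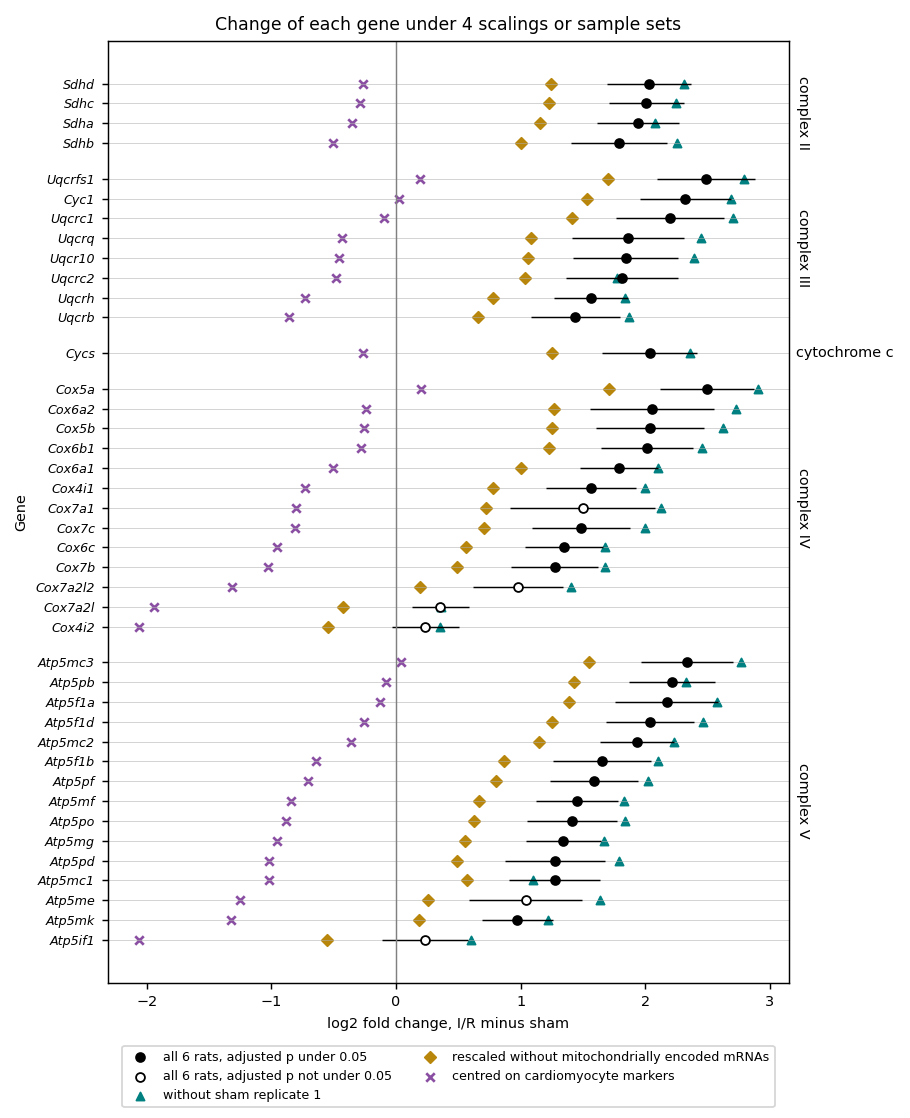
Log2 fold change (I/R minus sham) of each tested gene by complex, with all 6 rats (black, bars give the standard error from limma, filled where the adjusted p is under 0.05), without sham replicate 1 (triangles), rescaled without the mitochondrially encoded mRNAs (diamonds) and centred on the cardiomyocyte markers (crosses). All 41 black points lie above 0, while the crosses lie below 0 for 37 of the 41 genes, with Cox4i2, Cox7a2l and Atp5if1 farthest left.

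In complex II, all 4 genes rose, with log2 fold changes between 1.79 and 2.03, and their median turned to -0.32 on the cardiomyocyte centring. Sdhd, a membrane anchor that holds part of the ubiquinone site, was at 55.0, 34.1 and 27.2 FPKM in the sham rats and 225, 129 and 120.2 FPKM in the I/R rats. For Sdhd, limma gave a log2 fold change of 2.03 (SE 0.34, adjusted p = 0.00383). The lowest I/R rat was 120.2 FPKM, above the highest sham rat. Sdhb, the iron-sulfur subunit, was at 159, 62.6 and 58.3 FPKM in the sham rats and 381, 257 and 244 FPKM in the I/R rats. For Sdhb, limma gave a log2 fold change of 1.79 (SE 0.39, adjusted p = 0.00886). The groups did not overlap. Sham replicate 1 was at 2.62 times the mean of the other sham rats for Sdhb and 1.79 times for Sdhd. The flavoprotein gene Sdha, which carries the succinate site, and the second anchor gene Sdhc had log2 fold changes of 1.94 and 2.01, both called. Without sham replicate 1, the 4 values lay between 2.08 and 2.31, all called. Although each subunit is present once in the complex, Sdhb was listed at a higher FPKM than the others in every rat. It had a mean of 294 FPKM in I/R against 92.4 for Sdha, 161 for Sdhc and 158 for Sdhd.

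In complex III, all 8 genes rose, and their median of 1.85 turned to -0.44 on the cardiomyocyte centring. The largest change was that of Uqcrfs1 (ENSRNOG00000018281), which encodes the Rieske iron-sulfur protein, at 92.1, 49.98 and 48.4 FPKM in the sham rats and 607, 268 and 243 FPKM in the I/R rats. For Uqcrfs1, limma gave a log2 fold change of 2.49 (SE 0.39, adjusted p = 0.00350). I/R replicate 1 was the highest of all rats, and the lowest I/R rat was above the highest sham rat. Cyc1, the heme-bearing cytochrome c1, was at 166, 82.4 and 72.6 FPKM in the sham rats and 725, 423 and 404 FPKM in the I/R rats. For Cyc1, limma gave a log2 fold change of 2.32 (SE 0.37, adjusted p = 0.00350), again without overlap. The core protein genes Uqcrc1 and Uqcrc2 had log2 fold changes of 2.20 and 1.81, both called, but their listed FPKM values were far apart. Uqcrc1 averaged 513 FPKM in I/R and Uqcrc2 46.2 FPKM, and the 89.5 FPKM of Uqcrc2 in I/R replicate 1 was 3.65 times the mean of the other I/R rats. Without that rat the log2 fold change of Uqcrc2 was 1.19 (adjusted p = 0.0126 with limma). Its call was lost after quantile normalization (adjusted p = 0.0780) and without sham replicate 1 and the mitochondrial mRNAs (0.172).

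The small subunits of complex III, which carry no redox group, changed by less in median (1.70 over Uqcrb, Uqcrh, Uqcrq and Uqcr10, against 2.26 over Cyc1, Uqcrc1, Uqcrc2 and Uqcrfs1). Uqcrb, a subunit close to the ubiquinone sites, had the smallest change of the complex, at 149, 62.6 and 58.3 FPKM in the sham rats and 256, 214 and 199 FPKM in the I/R rats. For Uqcrb, limma gave a log2 fold change of 1.44 (SE 0.36, adjusted p = 0.0143). Its groups did not overlap, but it is the sum of 2 rows of that symbol, and its adjusted p was 0.0700 without sham replicate 2 and 0.0585 without sham replicate 3. Uqcrq, the member of complex III with the highest mean FPKM, was at 1507, 494 and 410.2 FPKM in the sham rats and 2829.5, 2059 and 2532 FPKM in the I/R rats. Uqcrh, the hinge protein that helps dock cytochrome c1 with cytochrome c, had a log2 fold change of 1.56. Without sham replicate 2, the calls of Uqcrq and Uqcr10 were lost as well (adjusted p of 0.0674 and 0.0568 with limma), and that of Uqcrq also without sham replicate 3 (0.0537). Rescaled without the mitochondrial mRNAs, 7 of the 8 genes were called, all but Uqcrb (0.65, adjusted p = 0.0771).

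Cycs, the gene of cytochrome c, which carries electrons from complex III to complex IV and also takes part in apoptosis once released, was at 43.3, 23.6 and 20.6 FPKM in the sham rats and 184, 106 and 75.4 FPKM in the I/R rats. For Cycs, limma gave a log2 fold change of 2.03 (SE 0.38, adjusted p = 0.00536). The groups did not overlap, and I/R replicate 1 was the highest. RefSeq lists 7 pseudogenes named after Cycs, and at least 1 for 24 of the 45 members, and how reads shared with them were counted is not given in the sources used here.

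Complex IV had the widest range of log2 fold changes, from 0.23 to 2.50, with a median of 1.497 that turned to -0.80 on the cardiomyocyte centring. Of its 13 tested genes, 9 were called higher (25.5% of all genes). In 10 of them every I/R rat was above every sham rat (37.2% of all genes). Cox5a (ENSRNOG00000018816), a matrix-side subunit, had the largest change of all 41 genes, at 111, 49.6 and 45.1 FPKM in the sham rats and 508, 301 and 293 FPKM in the I/R rats. For Cox5a, limma gave a log2 fold change of 2.50 (SE 0.38, adjusted p = 0.00329). The lowest I/R rat, at 293 FPKM, was far above the highest sham rat, at 111 FPKM. Cox5b, its zinc-binding neighbor, and Cox6b1, an intermembrane-space subunit, had log2 fold changes of 2.04 and 2.01, both called. The small membrane subunit genes Cox6c, Cox7b and Cox7c changed by less, with log2 fold changes of 1.35, 1.27 and 1.49, also called. Each of these 3 lost its call without sham replicate 2 (adjusted p of 0.0605, 0.0910 and 0.0858 with limma) and without sham replicate 3 (0.0557, 0.0893 and 0.0713), and Cox7b also without I/R replicate 2 (0.0577).

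Several subunits of complex IV have isoforms. Cox6a2 (ENSRNOG00000019851), the heart and muscle isoform of a subunit that binds adenine nucleotides, had the highest mean FPKM of all members, at 2197, 570.1 and 516 FPKM in the sham rats and 4071, 3248 and 3499 FPKM in the I/R rats. For Cox6a2, limma gave a log2 fold change of 2.05 (SE 0.49, adjusted p = 0.0128). The groups did not overlap, but sham replicate 1 stood at 4.05 times the mean of the other sham rats, and the adjusted p was 0.0682 without sham replicate 2 and 0.0531 without sham replicate 3. Its ubiquitous counterpart Cox6a1 was at 151, 83.0 and 74.0 FPKM in the sham rats and 416, 317 and 289.8 FPKM in the I/R rats. For Cox6a1, limma gave a log2 fold change of 1.79 (SE 0.31, adjusted p = 0.00440), and the groups did not overlap.

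Cox4i1 (ENSRNOG00000017817), the ubiquitous isoform of the largest nuclear subunit, was at 572, 245 and 217 FPKM in the sham rats and 998, 859.6 and 917 FPKM in the I/R rats. For Cox4i1, limma gave a log2 fold change of 1.56 (SE 0.36, adjusted p = 0.0111). The adjusted p was 0.0594 without sham replicate 2. The groups did not overlap for Cox4i1. Cox4i2 (ENSRNOG00000007827), the isoform known from lung and from low-oxygen conditions, was at 17.96, 18.03 and 10.8 FPKM in the sham rats and 16.1, 21.7 and 16.4 FPKM in the I/R rats. For Cox4i2, limma gave a log2 fold change of 0.23 (SE 0.27, adjusted p = 0.529). Here the groups overlapped, with the lowest I/R rat below sham replicates 1 and 2.

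Cox7a1, the heart and muscle isoform of subunit 7a, was at 13.8, 3.21 and 4.23 FPKM in the sham rats and 34.4, 8.95 and 14.3 FPKM in the I/R rats. For Cox7a1, limma gave a log2 fold change of 1.497 (SE 0.58, adjusted p = 0.0724). Sham replicate 1 lay among the I/R rats, and each group was highest in its replicate 1. With the replicate number as a block the adjusted p was 0.000671, and without sham replicate 1 it was 0.0149. With each of the other rats left out it lay between 0.0343 and 0.250 (limma), and without I/R replicate 1 the log2 fold change was 0.96 (adjusted p = 0.234 with limma). Cox7a2l2 was at 968, 405 and 397 FPKM in the sham rats and 893, 1142 and 1170.0 FPKM in the I/R rats. For Cox7a2l2, limma gave a log2 fold change of 0.98 (SE 0.36, adjusted p = 0.0627). Sham replicate 1 was above I/R replicate 1, so that the groups overlapped, and the adjusted p was 0.0413 with the block and 0.00214 without sham replicate 1. With each of the other rats left out it lay between 0.0749 and 0.217 (limma). Cox7a2l, a related gene whose product takes part in joining complexes III and IV into supercomplexes, was at 59.1, 63.6 and 53.3 FPKM in the sham rats and 89.0, 66.8 and 70.4 FPKM in the I/R rats. For Cox7a2l, limma gave a log2 fold change of 0.35 (SE 0.23, adjusted p = 0.256). Its groups did not overlap, yet the change did not pass the test, and its direction turned under the rescaling without mitochondrial mRNAs (-0.43), quantile normalization (-0.68) and cardiomyocyte centring (-1.94).

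The 4 members that were not tested all belong to complex IV. Cox7b2 and Cox8c, isoforms known from the testis, and the pseudogene Cox6c-ps1 were listed at 0 in all 6 rats, and the pseudogene Cox6b1-ps1 was listed at 0 in 4 rats, with 0.0806 FPKM in sham replicate 1 and 0.284 FPKM in sham replicate 3. Cox7a2, Cox8a, Cox8b, Cox6b2, Uqcr11, Atp5f1c and Atp5f1e were not analysed here, so Cox7a1 could not be set against Cox7a2.

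In complex V, all 15 genes had a log2 fold change above 0 and 13 were called higher (25.5% of all genes). The median of 1.45 turned to -0.84 on the cardiomyocyte centring. By part of the enzyme, the medians were as follows: the F1 genes Atp5f1a, Atp5f1b and Atp5f1d, which form part of the catalytic head and its stalk, were at 2.04, the c ring genes at 1.93, the peripheral stalk genes at 1.501 and the small membrane subunit genes at 1.19. Atp5f1b, the catalytic beta subunit, was at 1445, 593 and 536 FPKM in the sham rats and 3144, 2139.8 and 2119.9 FPKM in the I/R rats. For Atp5f1b, limma gave a log2 fold change of 1.65 (SE 0.39, adjusted p = 0.0121). The adjusted p was 0.0642 without sham replicate 2 and 0.0545 without sham replicate 3. Its groups did not overlap, and sham replicate 1 was nearer to the I/R rats than to the other sham rats on the log scale. After quantile normalization the log2 fold change of Atp5f1b was 0.32 (adjusted p = 0.273 with limma). Atp5f1a, the alpha subunit, and Atp5f1d, the delta subunit of the central stalk, had log2 fold changes of 2.17 and 2.04, both called in every set of rats.

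The genes Atp5mc1, Atp5mc2 and Atp5mc3 encode the same c subunit of the rotor ring and differ in the part that targets it to mitochondria. Atp5mc3 had the largest change of complex V, at 295, 118 and 120.1 FPKM in the sham rats and 995, 755 and 717 FPKM in the I/R rats. For Atp5mc3, limma gave a log2 fold change of 2.33 (SE 0.37, adjusted p = 0.00350). Atp5mc2 was at 185, 103 and 95.5 FPKM in the sham rats and 522, 434 and 452 FPKM in the I/R rats. For Atp5mc2, limma gave a log2 fold change of 1.93 (SE 0.30, adjusted p = 0.00332). Neither gene overlapped between the groups. Atp5mc1 was listed at far lower values, 0.450, 1.12 and 0.413 FPKM in the sham rats and 1.67, 1.85 and 1.32 FPKM in the I/R rats. For Atp5mc1, limma gave a log2 fold change of 1.27 (SE 0.37, adjusted p = 0.0250). It is the sum of 2 rows, and RefSeq lists 2 pseudogenes named after it. Its groups did not overlap, but its adjusted p was 0.0688 without sham replicate 1 and 0.0918 without sham replicate 3, 0.0643 without I/R replicate 1 and 0.0718 without I/R replicate 2.

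Among the peripheral stalk genes, which hold the head still against the rotor, Atp5pb changed most (2.21) and Atp5pd least (1.28), with Atp5pf at 1.59 and Atp5po at 1.41, all called. Atp5pd kept its call only without sham replicate 1, and its adjusted p with each of the other rats left out lay between 0.0605 and 0.146 (limma). Atp5me, a small membrane subunit at the dimer interface and one of the most abundant members, was at 2464, 706 and 736 FPKM in the sham rats and 1839.8, 2416 and 2520.0 FPKM in the I/R rats. For Atp5me, limma gave a log2 fold change of 1.04 (SE 0.45, adjusted p = 0.103). Sham replicate 1 lay among the I/R rats and above I/R replicate 1. Without sham replicate 1 the log2 fold change was 1.63 (adjusted p = 0.00132 with limma). The other small membrane genes, Atp5mf, Atp5mg and Atp5mk, had log2 fold changes of 1.45, 1.34 and 0.97, all called, though none was called after rescaling without the mitochondrial mRNAs. Without sham replicate 2, Atp5pf, Atp5po and these 3 genes lost their calls, with adjusted p between 0.0525 and 0.114 (limma). Atp5po was also lost without sham replicate 3 (0.0648), and Atp5mk without sham replicate 3, I/R replicate 1 or I/R replicate 2 (0.0975, 0.0517 and 0.0941).

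Atp5if1 encodes the inhibitor that stops ATP synthase from running backwards and breaking down ATP when the membrane potential is lost, as in ischemia. The gene (ENSRNOG00000013300) was at 383, 175 and 179 FPKM in the sham rats and 228, 343 and 248.9 FPKM in the I/R rats. For Atp5if1, limma gave a log2 fold change of 0.23 (SE 0.34, adjusted p = 0.630). The groups overlapped, and sham replicate 1 was the highest of all 6 rats. It had the smallest log2 fold change of the 41 genes, which was 0.60 without sham replicate 1 (adjusted p = 0.0789 with limma) and turned to -0.55 when rescaled without the mitochondrial mRNAs.

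The larger change of core than of small subunits was followed within each rat, where a factor for the whole library drops out, and is given without a test. The parts were set against each other after their medians were seen. F1 and the small membrane subunits had the highest and lowest medians of the complex V parts listed above. A difference between the groups therefore partly restates that choice. In complex III, the mean log2 value of the 4 core genes minus that of the 4 small subunit genes was -2.11, -1.60 and -1.57 in the sham rats and -0.61, -1.51 and -1.58 in the I/R rats. The groups overlapped, and the difference between the group means, 0.53, was 0.21 without I/R replicate 1 and 0.35 without sham replicate 1. In complex V, the F1 genes minus the small membrane subunit genes came to -0.63, -0.65 and -0.86 in the sham rats and 0.58, -0.27 and -0.19 in the I/R rats. Every I/R rat was above every sham rat here, with a difference of 0.75, or 0.48 without I/R replicate 1. I/R replicate 1 was at a median of 1.69 times the mean of the other I/R rats in complex II, 2.10 times in the complex III core, 1.48 times in F1 and 0.969 times in the small membrane subunits of complex V.

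**Figure D3:**
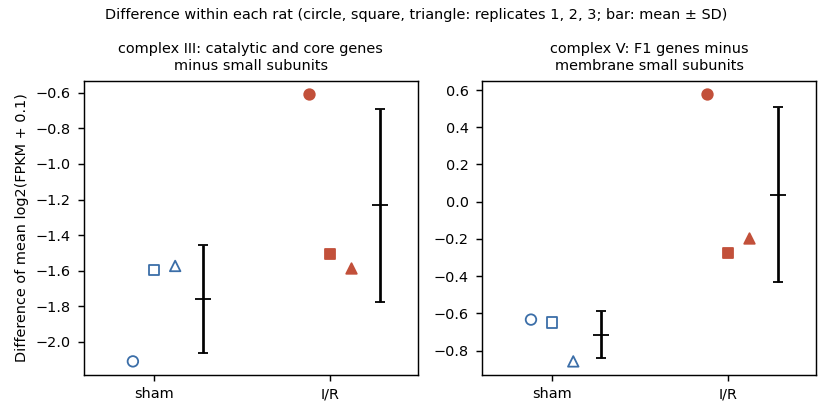
Difference within each rat, in mean log2(FPKM + 0.1), between core and small subunit genes of complex III (left) and between F1 and small membrane subunit genes of complex V (right), with the mean and SD of each group of 3. I/R replicate 1 (filled circle) is the highest in both panels, and the groups overlap in complex III and do not overlap in complex V.

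Isoform use was compared by the log2 ratio of 2 genes in the same rat, which also does not move with a factor for the whole library. Such a ratio can still move with the mix of cell types in the tissue, whose part was not tested. Of 12 planned pairs, 6 could be computed, and 2 pairs with Cox7a1 were added after the data were seen. The p-values were adjusted over these 8 pairs, and none can fall below 0.1 before adjustment. The FPKM ratio of Cox4i1 to Cox4i2 was 31.9, 13.6 and 20.1 in the sham rats and 62.2, 39.6 and 55.9 in the I/R rats. Every I/R rat was above every sham rat, and the change was 1.33 on the log2 scale (two-sided exact permutation test, p = 0.1, adjusted p = 0.267). It lay between 1.03 and 1.65 when single rats were dropped.

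The ratio of the muscle isoform Cox6a2 to Cox6a1 was 14.6, 6.87 and 6.97 in the sham rats and 9.78, 10.3 and 12.1 in the I/R rats. Sham replicate 1 was the highest of all rats, and the groups overlapped. The change was 0.27 on the log2 scale (two-sided exact permutation test, p = 0.5, adjusted p = 0.571). It was 0.62 without sham replicate 1, 0.080 without sham replicate 2 and 0.091 without sham replicate 3. What Cox7a2l2 encodes in the annotation used is not known, so the ratio of Cox7a1 to it cannot be read as a switch between isoforms of one subunit. The ratio of Cox7a1 to Cox7a2l2 was 0.0143, 0.00792 and 0.0107 in the sham rats and 0.0385, 0.00784 and 0.0122 in the I/R rats. The change was 0.52 on the log2 scale (two-sided exact permutation test, p = 0.7, adjusted p = 0.7) and turned to -0.14 without I/R replicate 1. The log2 ratio of Cox7a1 to Cox7a2l was -2.08, -4.27 and -3.62 in the sham rats and -1.37, -2.89 and -2.29 in the I/R rats. The groups overlapped, with a change of 1.14 on the log2 scale (two-sided exact permutation test, p = 0.3, adjusted p = 0.4). It was 1.76 without sham replicate 1 and 0.67 without sham replicate 2.

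The ratio of Atp5mc2 to Atp5mc3 was 0.627, 0.873 and 0.796 in the sham rats and 0.525, 0.574 and 0.631 in the I/R rats. Sham replicate 1 lay among the I/R rats, and the change was -0.40 on the log2 scale (two-sided exact permutation test, p = 0.2, adjusted p = 0.4). The log2 ratio of Atp5mc1 to Atp5mc3 was -9.07, -6.60 and -7.87 in the sham rats and -9.14, -8.601 and -8.98 in the I/R rats. The groups overlapped, with a change of -1.06 on the log2 scale (two-sided exact permutation test, p = 0.3, adjusted p = 0.4), and the pair rests on Atp5mc1 values under 2 FPKM. It was -1.67 without sham replicate 1 and -0.44 without sham replicate 2.

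The ratio of the inhibitor gene Atp5if1 to its target Atp5f1b was 0.265, 0.295 and 0.333 in the sham rats and 0.0724, 0.160 and 0.117 in the I/R rats. Every I/R rat was below every sham rat, and sham replicate 1 lay close to the other sham rats. The change was -1.42 on the log2 scale (two-sided exact permutation test, p = 0.1, adjusted p = 0.267). It lay between -1.69 and -1.11 when single rats were dropped. The ratio of Cycs to Cyc1 was 0.261, 0.287 and 0.284 in the sham rats and 0.253, 0.250 and 0.187 in the I/R rats. The groups did not overlap, and the change was -0.29 on the log2 scale (two-sided exact permutation test, p = 0.1, adjusted p = 0.267). It was -0.14 without I/R replicate 3, the lowest rat.

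**Figure D4:**
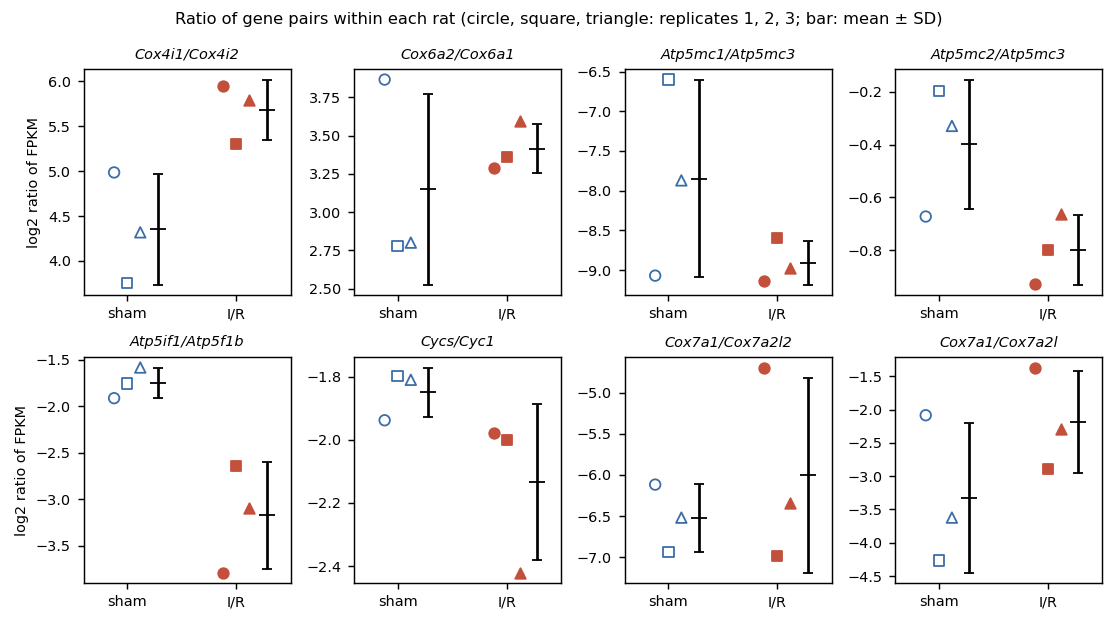
Log2 ratio of 8 gene pairs in each rat, with open blue symbols for sham, filled red symbols for I/R, and the mean and SD of each group of 3 beside them (the vertical axis differs between panels and does not start at 0). The groups do not overlap for Cox4i1/Cox4i2, Atp5if1/Atp5f1b and Cycs/Cyc1, and they overlap in the other 5 panels.

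Complexes III, IV and V are built from both genomes, so the nuclear transcripts were set against the mitochondrially encoded ones of the same complex in the same rat. As a percent of the FPKM of Mt-cyb, the cytochrome b gene, the summed FPKM of the 8 nuclear genes of complex III came to 5.60, 1.85 and 1.48% in the sham rats and 18.2, 9.69 and 9.41% in the I/R rats. As a percent of the sum of Mt-co1, Mt-co2 and Mt-co3, which encode the catalytic subunits, those of complex IV came to 1.78, 0.651 and 0.554% in the sham rats and 4.79, 3.44 and 3.47% in the I/R rats. For complex V, set against the membrane subunit genes Mt-atp6 and Mt-atp8, the value was 5.82, 2.37 and 2.20% in the sham rats and 15.3, 10.0 and 10.3% in the I/R rats. Every I/R rat was above every sham rat in each complex, and the ratio of the group means was 4.18 in complex III, 3.92 in complex IV and 3.43 in complex V. Without sham replicate 1 the ratios were 7.46, 6.47 and 5.20. The 6 mitochondrial genes themselves were all below 0 in log2 fold change (median -0.48), from -0.32 for Mt-cyb to -0.75 for Mt-atp8, and 0 of the 6 were called. The median over all genes tested was 0.29, so a gene at that median also rose against the mitochondrial genes.

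**Figure D5:**
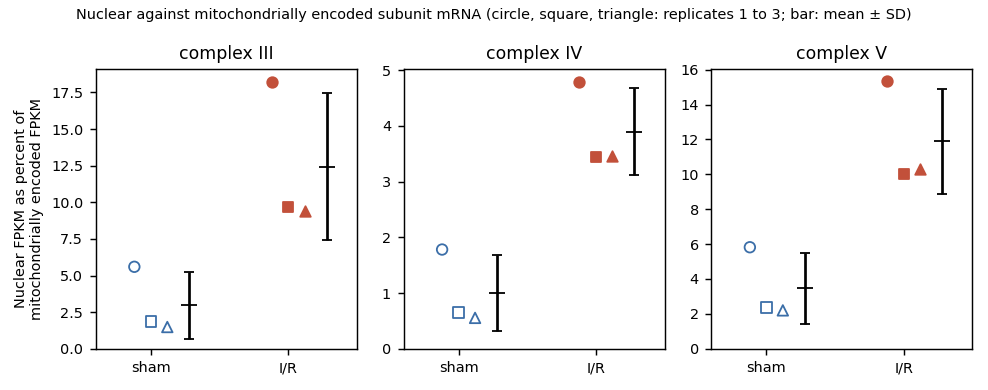
Summed nuclear FPKM as a percent of the summed mitochondrially encoded FPKM of the same complex in each rat, for complexes III, IV and V, with the mean and SD of each group of 3 (each panel starts at 0 and has its own scale). Sham replicate 1 (open circle) is the highest sham rat and I/R replicate 1 (filled circle) the highest I/R rat in all 3 panels, and the groups do not overlap.

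Genes that serve the same complexes were read from further lists. Of 36 assembly and cofactor delivery genes, 26 were in the table and 23 were tested. Of the 23, 15 were called higher and 0 lower, beside 25.5% and 7.36% of all genes. Their median log2 fold change was 1.02, beside 0.29 over all genes. Sdhaf3, an assembly factor of complex II, was at 1.51, 2.31 and 2.10 FPKM in the sham rats and 16.6, 6.01 and 7.38 FPKM in the I/R rats. For Sdhaf3, limma gave a log2 fold change of 2.16 (SE 0.36, adjusted p = 0.00400), and the groups did not overlap. Lrpprc, which binds and stabilizes mitochondrial mRNAs, changed by 1.95, Coa6, which serves copper delivery to complex IV, by 1.69, and Tmem70, an assembly factor of ATP synthase, by 1.69, all called. Cox15, an enzyme of heme A synthesis, was at 7.13, 9.73 and 6.87 FPKM in the sham rats and 9.04, 8.45 and 6.35 FPKM in the I/R rats, overlapping, with a log2 fold change of 0.0088. Rescaled without the mitochondrial mRNAs, 4 of the 23 were called higher (7.25% of all genes) and 1 lower (2857 of all 10942 genes). The median was then 0.25, beside -0.46 over all genes. Of 36 tested nuclear genes of complex I, which feeds electrons from NADH into the chain, 30 were called higher and 0 lower (25.5% and 7.36% of all genes). Their median was 1.57, next to 1.79 for the 41 members, and this difference was not tested.

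Of 13 genes for regulators of respiratory gene transcription, 10 were tested, and 3 were called higher and 0 lower, with a median of 0.34, close to the 25.5% called higher and the median of 0.29 over all genes. Ppargc1a, the coactivator PGC-1alpha, was at 0.813, 1.05 and 0.568 FPKM in the sham rats and 2.68, 3.80 and 2.88 FPKM in the I/R rats. For Ppargc1a, limma gave a log2 fold change of 1.84 (SE 0.28, adjusted p = 0.00318), and the groups did not overlap. Pprc1, a related coactivator, and Tfam, the mitochondrial transcription and packaging factor, had log2 fold changes of 1.31 and 0.84, both called. Rescaled without the mitochondrial mRNAs, the values were 1.11, 0.58 and 0.064, and only Ppargc1a of these 3 kept its call (adjusted p of 0.0246, 0.226 and 0.873 with limma). Nrf1 and Gabpa encode DNA-binding factors known to act on many respiratory genes. Nrf1 was at 0.618, 0.965 and 0.633 FPKM in the sham rats and 1.11, 1.17 and 0.771 FPKM in the I/R rats. Gabpa was at 1.28, 1.57 and 1.55 FPKM in the sham rats and 1.52, 1.54 and 1.13 FPKM in the I/R rats. Both overlapped between the groups and had log2 fold changes of 0.42 and -0.072 and were not called. Centred on the cardiomyocyte markers, the median of all genes was -2.01, and the medians of these lists were -1.96 for the regulators, -1.28 for the assembly factors and -0.72 for complex I.

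Because the members moved together, their promoters were searched on both strands for the letters of 5 motifs named for such factors. The windows are those of RefSeq (build GRCr8), from 250 bases before to 50 bases after the start site. Of the 45 genes, 37 matched a window by symbol, 24 held at least 1 motif and 13 held none, and no matches of different motifs shared bases. A gene with several windows was counted when any of them held the letters. The NRF1 letters CGCATGCG were in 7 of the 37 member promoters (18.9%), against 1.86% of all 27457 genes with a promoter in the table and 4.001% of the 8022 tested genes with one. The GABPA letters CCGGAAG were in 12 of the 37 member promoters (32.4%), against 9.63% of all 27457 genes with a promoter in the table and 19.1% of the 8022 tested genes with one. The ERR letters TCAAGGTCA were in 2 (5.41%, against 0.441% of all genes and 0.262% of tested genes), and the YY1 letters AAGATGGCG in 3 (8.11%, against 1.99% and 4.06%). The SP1 letters GGGCGGG were in 9 (24.3%), against 25.1% of all genes and 48.2% of tested genes. The 37 members include Cox7b2 and Cox8c, which were not tested and held only the SP1 letters. Among the tested members, 7 held the SP1 letters and 28 did not. The windows of Cycs and of genes of each complex are shown with the motif in capitals, 5′ to 3′ on the strand of the gene, and a motif found on the other strand appears as its reverse complement.
The NRF1 letters are in the first 3, the GABPA letters in the next 4 and the ERR letters in the last.
Cycs (chr4:80984907-80984936, minus strand): ccatgctagccCGCATGCGcgcgcaccttg
Atp5mc2 (chr7:135678255-135678284, minus strand): ggctctagtcgCGCATGCGcagagccttct
Atp5po (chr11:44657523-44657552, minus strand): acgccgacgcgCGCATGCGctctggcatca
Cox4i1 (chr19:65630375-65630404, plus strand): accgtcttgctCTTCCGGtgcgggacccgc
Cox5b (chr9:46417812-46417841, plus strand): tctgtctgttcCCGGAAGtgcatctgcttg
Sdhb (chr5:158547815-158547844, plus strand): tactcgggataCCGGAAGctgccttccact
Uqcrq (chr10:38089982-38090011, minus strand): ttccgctcctcCCGGAAGtgacgtgcaaag
Atp5mc3 (chr3:79220702-79220731, minus strand): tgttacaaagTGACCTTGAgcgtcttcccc
Within the members, the median log2 fold change was 1.59 for the 7 tested genes with the NRF1 letters and 1.83 for the 28 without. It was 1.69 for the 12 with the GABPA letters and 1.93 for the 23 without, and 1.59 for the 3 with the YY1 letters and 1.83 for the 32 without. The other motifs went the other way. The median was 2.18 for the 2 with the ERR letters and 1.79 for the 33 without. For SP1 it was 2.01 for the 7 tested genes with the letters and 1.80 for the 28 without. Cox5a and Uqcrfs1, the genes with the largest changes, held neither the NRF1 nor the GABPA letters in these windows. A match of letters is a description of the window and was not tested as a binding site.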

How the data were processed

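RNA from the myocardium of 3 sham and 3 I/R rats was sequenced, and FPKM values of 30452 genes were deposited by the authors in 1 table. STAR and HTSeq are named in the submitters' processing notes, without role or version, and the genome build and annotation are not given in the sources used here. The absolute depth is unknown, since FPKM carry no counts. The relative depth, read from whole steps of low values, was 0.873 to 1.18 times that of sham replicate 1.

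Rows of one symbol were summed, and log2(FPKM + 0.1) of the 10942 genes with a mean of at least 0.5 FPKM was fitted with limma 3.58.1 in R 4.3.3 (intensity trend, Benjamini-Hochberg adjustment over all genes tested, threshold 0.05). The fit was tested on simulated data. For gene pairs, a two-sided exact permutation test over rats was used, with a smallest p of 0.1. Members were found by symbol, and the members and all lists were chosen with earlier results of these data known. Named in full were the genes of each pair, the highest and lowest change of each complex, Cycs, Cyc1 and every gene not called. Other genes named for their function were chosen after their values were seen. The red blood cell marker list had 0 genes in the table.

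The deviations of same-numbered sham and I/R rats from their group means correlated at 0.20, 0.12 and 0.12, and those of differently numbered rats at -0.19 to 0.12. These values do not show a pairing, since sham replicate 3 with I/R replicate 2 also came to 0.12, and no label states one. A fit with the numbers as a block was still run as an alternative. The alternatives were other pseudocounts, filters, scalings, variance model and row choice, the block and leaving out each rat. Leaving out sham replicate 1 together with the rescaling was added after the data were seen. Protein sequences were not used here.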

Additional observations from a re-analysis of the deposited data

How the results depend on the processing

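Of all genes tested, 2790 were called higher and 805 lower, so that 77.6% of calls were higher. That share was 91.9% with a mean of at least 5 FPKM (166 lower), 87.3% as TPM (504 lower), 56.5% centred on the median (1554 lower), 48.0% after quantile normalization (1441 higher, 1559 lower), 21.7% rescaled without mitochondrial mRNAs (793 higher, 2857 lower) and 0.388% centred on cardiomyocyte markers (35 higher, 8977 lower). The median of all genes shifted by 0.19 as TPM, -0.25 centred on the median, -0.31, -0.75 and -2.30 in the last 3. Without sham replicate 1 and rescaled, chosen after the data were seen, 930 were higher and 4895 lower. Of the 41 members, 35 higher and 0 lower became 17 and 1 (quantile), 0 and 12 (cardiomyocyte) and 32 and 1 (without sham replicate 1 and rescaled). Their medians moved to 0.76 (all members), 1.02 (complex II), 0.93 (complex III), 0.63 (complex IV), 0.51 (complex V) after quantile normalization, 1.004 (all members), 1.19 (complex II), 1.07 (complex III), 0.72 (complex IV), 0.67 (complex V) without mitochondrial mRNAs, -0.51 (all members), -0.32 (complex II), -0.44 (complex III), -0.80 (complex IV), -0.84 (complex V) on cardiomyocyte markers and 1.31 (complex II) without sham replicate 1 and rescaled. Without the filter on low values, which adjusts over more genes, 24 members were called higher, beside 2198 of 19226 genes in all.

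Of the genes named in full, those below turned sign. Centred on the median: Atp5if1 -0.017, Cox4i2 -0.014. Quantile: Atp5if1 -0.75, Atp5me -0.34, Cox4i2 -0.51, Cox7a2l -0.68, Cox7a2l2 -0.092. Without mitochondrial mRNAs: Atp5if1 -0.55, Cox4i2 -0.55, Cox7a2l -0.43. Without sham replicate 1 and rescaled: Atp5if1 -0.33, Cox4i2 -0.58, Cox7a2l -0.57. Cardiomyocyte markers: Atp5f1b -0.64, Atp5if1 -2.06, Atp5mc1 -1.02, Atp5mc2 -0.36, Atp5me -1.25, Cox4i1 -0.73, Cox4i2 -2.06, Cox6a1 -0.51, Cox6a2 -0.24, Cox7a1 -0.80, Cox7a2l -1.94, Cox7a2l2 -1.32, Cycs -0.26, Sdhb -0.51, Sdhd -0.27, Uqcrb -0.86. The causes were not tested.

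When single rats were dropped, 20 to 37 members and 1528 to 2557 genes in all were called higher and 309 to 881 lower, the fewest members without sham replicate 2 and the fewest higher genes without sham replicate 3. The nuclear to mitochondrial ratios were 3.21 to 7.46 (III), 3.21 to 6.47 (IV) and 2.90 to 5.20 (V), all highest without sham replicate 1. The change of Cox7a1/Cox7a2l2 was -0.14 to 1.005, below 0 without I/R replicate 1, and Cox4i2 was -0.0090 to 0.36, below 0 without sham replicate 3. With the replicate block, 37 members were called higher (3085 of all 10942 genes), with Cox7a1 and Cox7a2l2 added, and no other call among the members changed. Of the single genes' other values, 311 kept direction and call, 28 lost the call and 10 gained it. The calls lost after quantile normalization were those of Atp5f1b, Cox4i1, Cox6a2, Sdhb and Uqcrb, with adjusted p between 0.0514 and 0.273 (limma). FPKM without counts give no counting error, and 3 rats per group limit every test.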
